A study of Homo sapiens with 20 samples.

Results

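The panel is a set of 52 protein-coding genes of human chromosome 10, spread over both arms, taken from 26038 gene symbols in the deposited count table. The members were chosen by measured values: an earlier look at gene-by-gene ratios among all 4 groups of these same libraries had shown chromosome 10 genes offset between groups, and the question is whether the offset is even along the chromosome or carried by a few genes. All 4 comparisons below use those ratios, so they describe the members: fold changes and calls come from a fit over all genes, each count of calls stands beside the share over all genes, and no p-value of a member is given. In the RefSeq annotation of GRCh38.p14, 10 members lie on the short arm and 42 on the long arm, and the table holds 920 other chromosome 10 symbols.

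The study's subject was liver cancer cells after heating that does not kill them, a model of incomplete microwave ablation. All 20 libraries are polyA RNA-seq of MHCC-97H, by its label a hepatocellular carcinoma line of human origin, kept in a bath for 15 minutes and then in an incubator for 24 hours. The NFS1 group was labelled as an shRNA knockdown of NFS1, the enzyme that takes sulfur from cysteine to build iron-sulfur clusters, and was held at 47 °C. The NC group was labelled wild type and held at 47 °C in the same experiment. The R-47 and R-37 groups were wild type and held at 47 °C and 37 °C in another experiment. Each group has 5 libraries, and nothing says that they came from separate cultures, so the spread between them may be technical. The shRNA sequence, the number of clones and any control construct in NC are not stated in the labels, and the series title spells the gene NSF1.

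Each cell normally holds a pair of chromosome 10 copies, and transcript levels of most genes roughly follow the number of gene copies. In a cancer line, a gained or lost chromosome segment therefore tends to move many neighbouring genes by similar small amounts, whereas a gene switched on or off by its own promoter or enhancers can move far more than its neighbours. Chromosome 10 carries genes of very different roles. DNA copy number was not analysed here, and whether it differs between these libraries was not tested.

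Before the panel, the labels were read against the data. Depth was 32219946 to 39689939 counts per library, with 18105 to 20480 genes detected. NFS1 itself averaged 66.5 ± 2.93 CPM in NFS1 libraries and 72.7 ± 1.89 CPM in NC libraries (SD, n = 5 each; CPM are library-scaled counts, with TMM factors over all 20 libraries). Its log2 fold change was -0.11 (SE 0.05) and was not called (adjusted p = 0.114, edgeR's quasi-likelihood test). Every NFS1 library (64.0 to 70.7 CPM) nevertheless lay below every NC library (71.4 to 76.0 CPM), as for 10.5% of all genes. The knockdown is therefore given here as a label, beside a small drop of its target that was not called. The tetraspanin gene CD81 averaged 0.0302 CPM in NFS1 and 0.0308 CPM in NC, against 67.4 CPM in R-47 and 62.1 CPM in R-37. The keratin gene KRT19 averaged 0.651 and 0.794 CPM in NFS1 and NC, against 423 and 425 CPM in R-47 and R-37. Vimentin (VIM) went the other way, with 164 and 217 CPM in NFS1 and NC, against 10.3 and 10.6 CPM in R-47 and R-37. The 15 hepatocyte and liver cancer markers summed to 3584 to 4285 CPM in NFS1, 4584 to 4985 CPM in NC, 6095 to 6824 CPM in R-47 and 6136 to 7435 CPM in R-37, mostly from KRT8 and KRT18. Albumin (ALB) averaged 0.633, 0.849, 5.1 and 14.1 CPM in that order of groups. Fibrinogen beta (FGB) averaged 106, 102, 41.9 and 53.1 CPM and the liver transcription factor gene HNF4A 67.4, 96.3, 55.3 and 45.6 CPM, while AFP averaged 3.68 to 5.17 CPM and GPC3 and TTR stayed at or near 0 throughout. Every comparison across the pair of experiments therefore also compares libraries that differ in such markers. All 20 libraries carry the MHCC-97H label, and whether both experiments used the same line was not tested. In bulk libraries, fewer cells of a kind and less RNA per cell cannot be told apart. Experiment and group cannot be told apart there either, and the part of these markers in the results was not tested.

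SFMBT2 and FRMD4A are the members furthest from the panel median in NFS1 against NC, and UPF2 lies between them on the short arm, nearer the median (log2 fold change 0.68). Their promoter windows (250 bases before to 50 after the annotated start, minus strand, RefSeq, GRCh38.p14) are printed to let a reader compare them. Capitals mark CG dinucleotides. The windows are chr10:7411441-7411740 for SFMBT2, chr10:12043121-12043420 for UPF2 and chr10:14008501-14008800 for FRMD4A. The last lies inside the annotated span of FRMD4A (13643706 to 14330924), at the start of a shorter transcript.
SFMBT2: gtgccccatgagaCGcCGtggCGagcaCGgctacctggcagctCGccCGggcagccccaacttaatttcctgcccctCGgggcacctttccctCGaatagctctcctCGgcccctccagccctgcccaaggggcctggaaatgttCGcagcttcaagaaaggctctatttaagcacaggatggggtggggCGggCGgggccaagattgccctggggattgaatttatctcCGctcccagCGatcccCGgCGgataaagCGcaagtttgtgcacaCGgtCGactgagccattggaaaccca
UPF2: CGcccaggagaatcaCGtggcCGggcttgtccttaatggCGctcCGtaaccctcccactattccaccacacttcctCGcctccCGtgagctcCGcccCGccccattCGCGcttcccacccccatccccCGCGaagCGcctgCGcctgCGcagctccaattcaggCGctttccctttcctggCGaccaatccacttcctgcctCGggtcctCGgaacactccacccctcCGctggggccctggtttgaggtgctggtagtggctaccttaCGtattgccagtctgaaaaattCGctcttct
FRMD4A: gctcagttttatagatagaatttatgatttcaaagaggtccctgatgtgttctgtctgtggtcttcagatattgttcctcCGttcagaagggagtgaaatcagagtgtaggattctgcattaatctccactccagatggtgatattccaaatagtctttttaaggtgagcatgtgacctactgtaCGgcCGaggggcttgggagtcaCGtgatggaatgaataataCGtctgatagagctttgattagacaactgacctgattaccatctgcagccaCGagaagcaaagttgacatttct
The windows hold 19 CG dinucleotides in SFMBT2, 23 in UPF2 and 6 in FRMD4A, so SFMBT2 and UPF2 were close in this count and FRMD4A was lower. Of the 52 members, 46 had a window, and BTRC, EIF3A, NOLC1, NRP1, TRIM8 and VPS26A are named only. The median was 24 CG dinucleotides over those 46 windows and 14 over all 35116 windows of the table. The GC box GGGCGG, searched on both strands like the motifs after it, was in 36 of 46 member windows (78.3%) and 45% of all windows. The CCAAT box CCAAT was in 20 (43.5%, against 34.6%), the E-box CACGTG in 4 (8.7%, against 7.26%) and the TATA box TATAAA in 4 (8.7%, against 11.5%). The last were the windows of FRMD4A, ANXA11, BMPR1A and GSTO1. No member window held the cyclic AMP response element TGACGTCA (1.85% of all) or the heat shock element of 3 alternating GAA units (0.49% of all). The 35116 windows were not limited to protein-coding genes or to genes tested here, whereas the members are protein-coding. The shares of members and of all windows thus come from unlike sets of genes. A match is a description of letters and not of a bound site.

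Across the panel, most members were higher in NFS1 libraries than in NC libraries, by amounts that varied between members. Of 51 members tested, 45 were called higher (adjusted p below 0.05, edgeR over all genes) and none lower, where 15.7% of all 15086 genes were called higher and 12.5% lower. Their libraries did not overlap for 41 members, all higher in NFS1 (10.5% of all genes). The median log2 fold change was 0.57, which is 1.49-fold, with quartiles at 0.33 and 0.81, against 0.02 over all genes tested. Since the rule used this contrast, nothing is read from these counts beyond the shape of the shift.

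That shape was broad. Of the 51 log2 fold changes, 28 lay within 0.25 of the median and 43 within 0.5. The interquartile range was 0.47 over members, against 0.37 over all genes tested and 0.36 over genes off chromosome 10. Members were thus no closer to their own median than genes in general. The members more than 1 from it were SFMBT2, FRMD4A and SH3PXD2A, and without these 3 the median was 0.54.

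**Figure D1:**
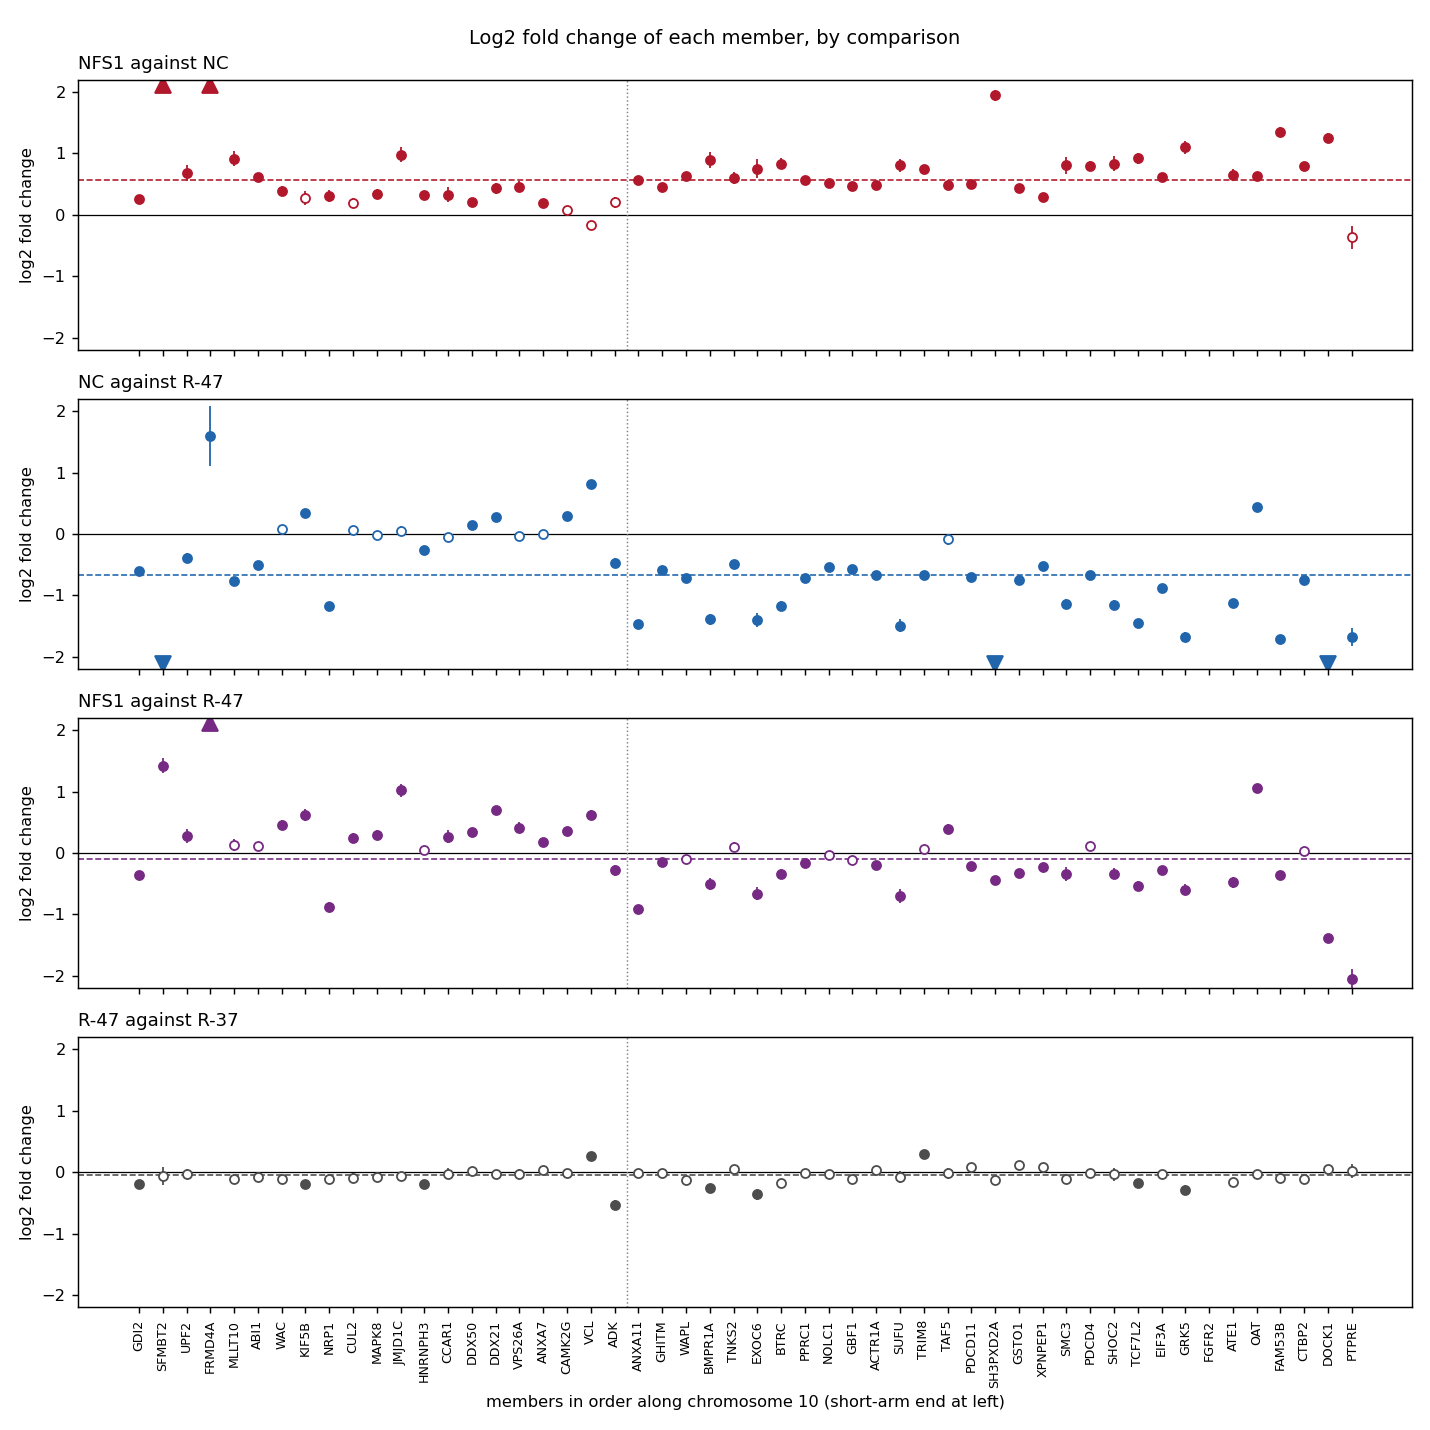
Log2 fold change of each member (y axis) in its order along chromosome 10 (x axis), for the 4 comparisons. Points are the fitted values with SE, filled where called and open where not, triangles mark values beyond ±2.2, dashed lines the panel medians and the dotted line the boundary between ADK and ANXA11. In NFS1 against NC nearly all points lie above 0, with SFMBT2 (5.63) and FRMD4A (3.23) off the scale; in NC against R-47 the points right of the dotted line lie below 0 except OAT (0.43).

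The members are ordered here by role, in groups made with the results known. Of all tested members 88.2% were called higher in NFS1 against NC, as were 64.1% of other chromosome 10 genes and 15.7% of all genes, so counts within a role group describe its members and say nothing particular to the role. The 9 genes of RNA handling, all called higher, had log2 fold changes of 0.21 to 0.79 and a median of 0.51. EIF3A, the largest subunit of translation initiation factor 3, had 346, 402, 411, 436 and 393 CPM in NFS1 libraries 1 to 5, against 289, 256, 254, 261 and 251 CPM in NC libraries. No NFS1 library overlapped an NC library (log2 fold change 0.62, SE 0.07). It had 480.0 to 493 CPM in R-47 and 487 to 505 CPM in R-37, above both groups of the other experiment. DDX21, a nucleolar RNA helicase, averaged 419 ± 62.6 CPM in NFS1 and 315 ± 29.4 CPM in NC (log2 fold change 0.43, SE 0.09), and its next-door paralogue DDX50 had 0.21 (SE 0.07). PDCD4, an inhibitor of translation initiation, averaged 45.8 ± 4.12 CPM in NFS1 and 26.8 ± 2.62 CPM in NC (0.79, SE 0.08). The group was filled out by UPF2, a nonsense-mediated decay factor (0.68), NOLC1 (0.52) and PDCD11 (0.51), both nucleolar, CCAR1 (0.33) and the RNA-binding protein HNRNPH3 (0.32).

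The 10 genes of transcription and chromatin, also all called higher, ran from 0.38 to 5.63, the widest range of the 7 role groups. SFMBT2, a Polycomb-group protein, was the extreme of the panel. It had 14, 13.5, 14, 18.2 and 13.6 CPM in NFS1 libraries, against 0.315, 0.333, 0.512, 0.126 and 0.203 CPM in NC libraries. These are 538 to 717 counts in NFS1 and 5 to 20 counts in NC. In the other experiment SFMBT2 averaged 5.52 ± 1.02 CPM in R-47 and 5.79 ± 1.06 CPM in R-37, so its level was highest in NFS1 and lowest in NC, and neither overlapped any other group. Its log2 fold change was 5.63 (SE 0.21) in NFS1 against NC. FAM53B, a nuclear protein, had 25.2 to 33 CPM in NFS1 and 11.1 to 13.2 CPM in NC (1.35, SE 0.09). JMJD1C, a Jumonji-domain chromatin protein, had 52.7, 77.3, 73.3, 90.7 and 64 CPM in NFS1, against 43.5, 35.4, 32.1, 38.5 and 34.4 CPM in NC (0.98, SE 0.13). TCF7L2, a transcription factor of the Wnt pathway, had 0.92 (SE 0.09), and MLLT10, a DOT1L partner, had 0.91 (SE 0.12). The remaining members of the group were the corepressor CTBP2 (0.79), TRIM8 (0.75), PPRC1, a coactivator (0.56), TAF5, a TFIID subunit (0.49), and WAC (0.38).

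Of 8 receptor and signalling genes tested, 6 were called higher and none lower, and CAMK2G and PTPRE were not called. GRK5, a kinase of G-protein-coupled receptors, had 11.2 to 15.1 CPM in NFS1 and 5.38 to 6.91 CPM in NC (log2 fold change 1.10, SE 0.10). The receptor gene BMPR1A had 0.89 (SE 0.13), SHOC2, a scaffold of the RAS pathway, 0.84 (SE 0.12), and SUFU, an inhibitor of Hedgehog signalling, 0.81 (SE 0.11). The kinase gene MAPK8 (0.34) and NRP1, a coreceptor of semaphorins and VEGF (0.30), sat below the panel median. PTPRE, a receptor-type phosphatase, was the lowest member of the panel in this comparison, at 1.22, 1.04, 1.82, 1.04 and 1.34 CPM in NFS1, against 1.55, 1.74, 1.95, 1.85 and 1.37 CPM in NC. The groups overlapped, and the log2 fold change was -0.37 (SE 0.19). CAMK2G, a calcium/calmodulin kinase subunit, averaged 51.5 ± 2.21 CPM in NFS1 and 49.2 ± 3.69 CPM in NC (0.08, SE 0.06). FGFR2, a fibroblast growth factor receptor, was too low to test in any comparison: 17 libraries had 0 counts and 3, all in the NFS1 group, had 1 or 2 counts. A count of 0 allows up to 0.0746 to 0.104 CPM per library (3 counts).

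Cytoskeleton and adhesion genes ran from -0.17 to 3.23, with 5 of 7 called higher. FRMD4A, a scaffold of epithelial polarity, had 3.7, 3.26, 3.97, 3.89 and 2.91 CPM in NFS1, against 0.315, 0.307, 0.564, 0.253 and 0.457 CPM in NC. This is 115 to 157 counts in NFS1 and 10 to 22 counts in NC, with no overlap (log2 fold change 3.23, SE 0.21). It had 0 to 7 counts in R-47 and 1 to 4 counts in R-37, so like SFMBT2 it was highest in NFS1, but in the other experiment it was near the detection limit, where SFMBT2 was not. SH3PXD2A, a scaffold of invadopodia, had 42.1, 35.8, 37.2, 43 and 43.5 CPM in NFS1, against 11, 12.2, 10.1, 9.28 and 10.4 CPM in NC (1.94, SE 0.09). It had 53.8 to 57.1 CPM in R-47 and 55.2 to 64.2 CPM in R-37, above both. DOCK1, an exchange factor for RAC, averaged 27.7 ± 2.44 CPM in NFS1 and 11.7 ± 0.823 CPM in NC (1.26, SE 0.08). ABI1, of the WAVE complex (0.62), and ACTR1A, the dynactin filament subunit (0.48), were called higher. VCL, which encodes the focal adhesion protein vinculin, had 585, 496, 512, 652 and 573 CPM in NFS1, against 700.4, 659, 638, 592 and 625 CPM in NC, and the groups overlapped (-0.17, SE 0.07). KIF5B, a kinesin heavy chain, had 217 to 348 CPM in NFS1 and 201 to 268 CPM in NC, also overlapping (0.28, SE 0.12).

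**Figure D2:**
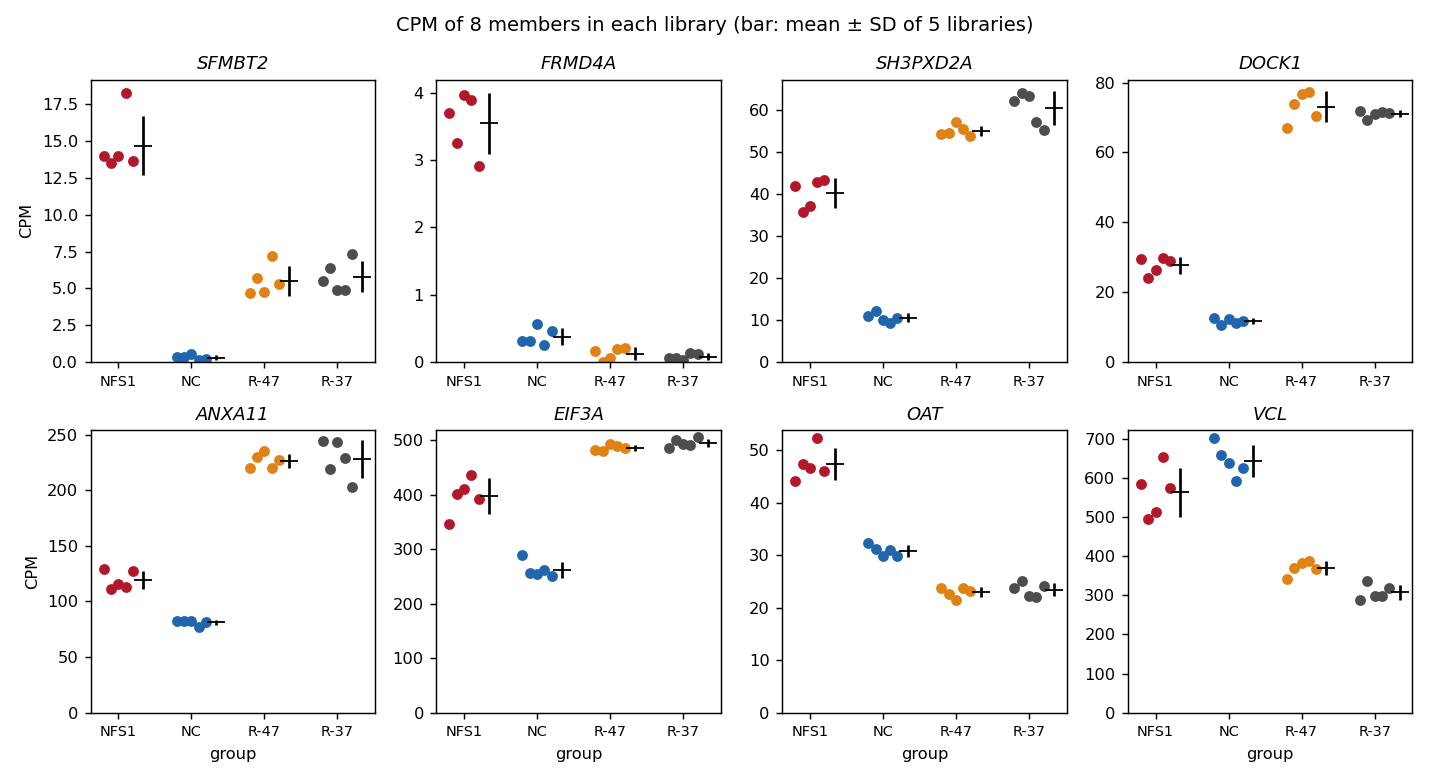
CPM (y axis, from 0) of 8 members in the 5 libraries of each group (x axis), with mean ± SD. SFMBT2, SH3PXD2A, DOCK1, ANXA11 and EIF3A are lowest in NC, FRMD4A is nearly absent outside NFS1, OAT is lowest in R-47 and R-37, and VCL overlaps between NFS1 and NC.

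The 6 membrane traffic genes, all called higher in NFS1, ran from 0.19 to 0.75: EXOC6 of the exocyst (0.75), ANXA11 (0.57), the ARF activator GBF1 (0.48), the retromer subunit VPS26A (0.46), the RAB regulator GDI2 (0.26) and ANXA7 (0.19). ANXA11, an annexin, was at the panel median, with 129, 111, 116, 113 and 127 CPM in NFS1, against 82.6, 82.7, 82.6, 77.2 and 81.6 CPM in NC. The groups did not overlap (SE 0.05). ANXA7 had 149 to 163 CPM in NFS1 and 131 to 151 CPM in NC, overlapping (SE 0.05).

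Of 5 genes of chromosome structure and ubiquitin, 4 were called higher: the ubiquitin ligase subunit BTRC (0.83), the cohesin subunit SMC3 (0.81), the cohesin release factor WAPL (0.63) and the tankyrase TNKS2 (0.60), while the cullin CUL2 (0.19, SE 0.09) was not. Of 6 genes of metabolism and protein ends, 5 were called higher: the arginyltransferase ATE1 (0.65), the mitochondrial aminotransferase OAT (0.64), the inner-membrane protein GHITM (0.45), the glutathione transferase GSTO1 (0.44) and the aminopeptidase XPNPEP1 (0.30). ADK, adenosine kinase, was not (0.21, SE 0.09).

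Along the chromosome the shift was not even. Members that start before 80 Mb, the edge between bins 4 and 5 of 7 bins of 20 Mb, had a median log2 fold change of 0.33, with 16 of 21 called higher. Members from 80 Mb on had 0.64, with 29 of 30 called higher, PTPRE being the exception. The 6 members not called in NFS1 against NC were KIF5B, CUL2, CAMK2G, VCL, ADK and PTPRE, 5 of which lie before that edge. Within the distal stretch 23 of 30 members lay within 0.25 of their own median, with an interquartile range of 0.32, against 0.36 off chromosome 10. The other chromosome 10 genes had medians of 0.26 before and 0.62 after the edge, and 331 of 516 of them were called higher (64.1%), against 13.7% of genes off chromosome 10. Over all chromosome 10 genes, bins 1 to 7 had medians of 0.33, 0.50, 0.10, 0.21, 0.61, 0.62 and 0.64. Bin 2, with 92.9% of its genes above 0, thus lay nearer the distal bins than bins 3 and 4 did, so the profile is not a single step at 80 Mb. The edge was chosen after the values were seen.

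The levels over the 4 groups also differed between the stretches. In a scale on which each gene is set to its mean over the 20 libraries, members from 80 Mb on had a median deviation of 0.04 ± 0.09 in NFS1, -0.60 ± 0.05 in NC, 0.28 ± 0.02 in R-47 and 0.31 ± 0.05 in R-37 (log2 CPM, SD, n = 5 each). Members before 80 Mb had 0.24 ± 0.17 in NFS1, -0.14 ± 0.09 in NC, -0.08 ± 0.05 in R-47 and -0.01 ± 0.12 in R-37. NC had the lowest mean of the 4 groups for 39 of 51 members, among them 28 of the 30 distal ones. For 26 members the NFS1 mean lay between those of NC and R-47, 23 of them distal. Neither count was made over all genes, and the members were chosen on these ratios. Both counts therefore only describe the members, and nothing particular to the panel is read from them.

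**Figure D3:**
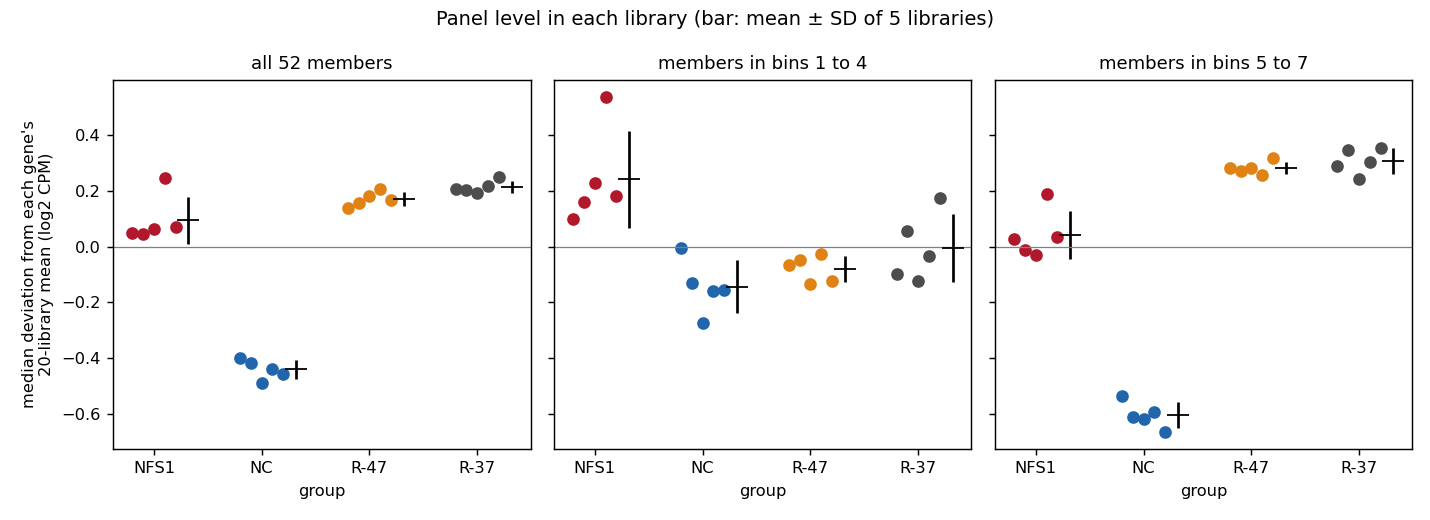
Median deviation over members from each gene's 20-library mean (y axis, log2 CPM) in each library, by group (x axis), for all members, those in bins 1 to 4 and those in bins 5 to 7; bars are mean ± SD of 5 libraries. NC lies apart below the other groups in bins 5 to 7, and NFS1 library 4 lies above the other NFS1 libraries.

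Other chromosomes did not show an offset of this size in NFS1 against NC. The median over all tested genes of chromosome 10 was 0.48, the highest of 23 chromosomes, and the next was 0.08 on chromosome 5; the lowest was -0.20 on the X chromosome. Counts on chromosome 10 genes were 3.24% ± 0.12 of the total in NFS1 and 2.45% ± 0.04 in NC (SD, n = 5 each), and 2.77% ± 0.02 in R-47 and 2.81% ± 0.07 in R-37. Summed over members, CPM was 4978 ± 387 in NFS1, 3834 ± 190.0 in NC, 4970.2 ± 53.7 in R-47 and 5119 ± 185 in R-37. Among chromosome 10 genes outside the panel, STN1, a telomere replication factor, and BAG3, a cochaperone, were the highest called genes with an average log2 CPM no lower than 4 (1.18 and 1.17). VIM, which encodes vimentin, and COMTD1 were the lowest (-0.38 and -0.39).

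**Figure D4:**
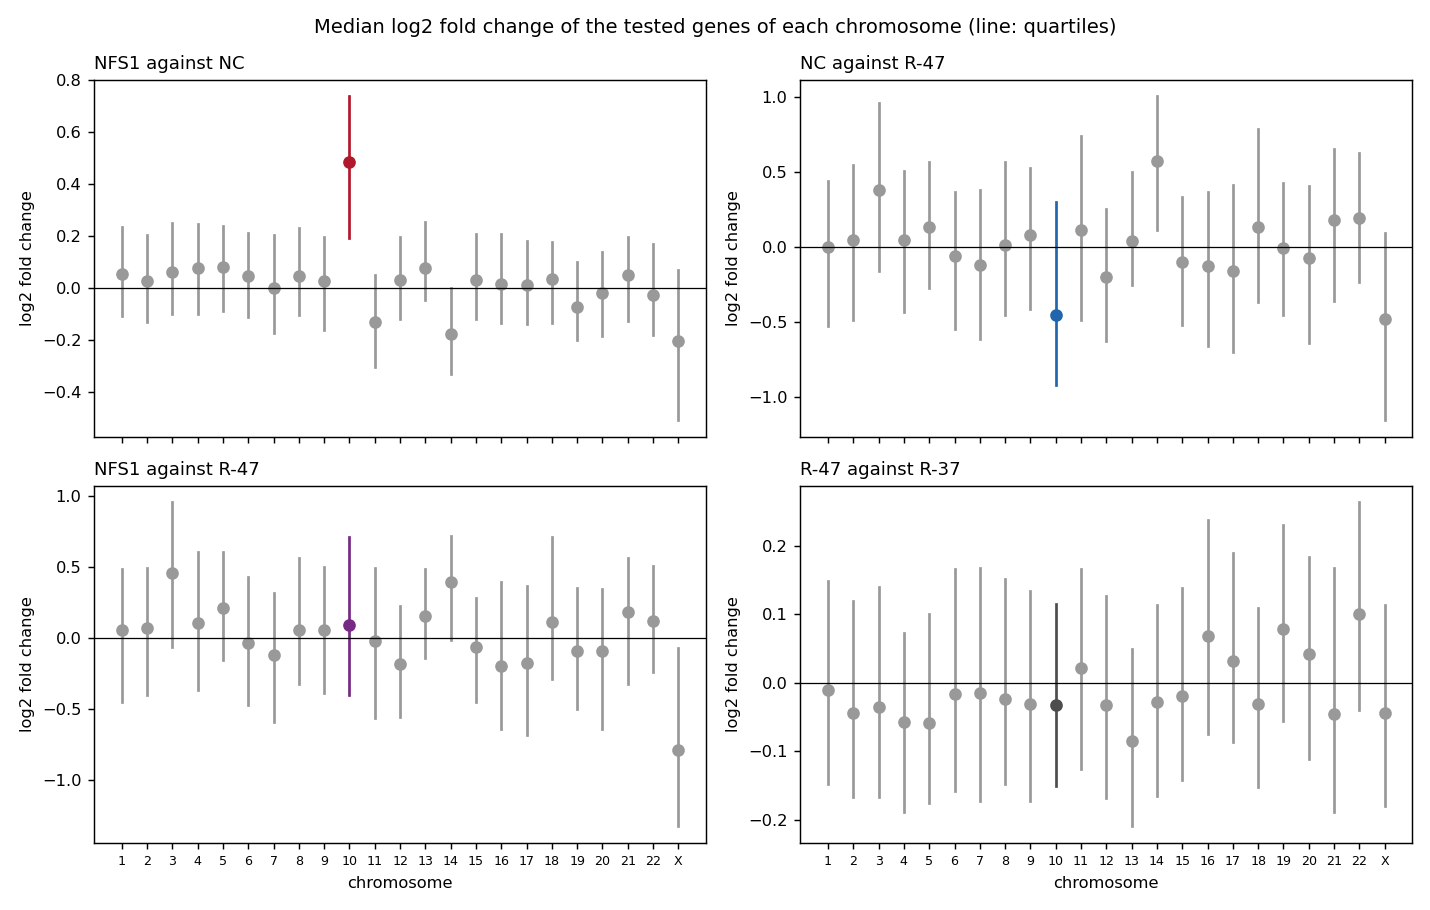
Median log2 fold change of the tested genes of each chromosome (points; lines span the quartiles; y axes differ between plots), with chromosome 10 in colour. In NFS1 against NC chromosome 10 stands at 0.48 and the next chromosome at 0.08; in NC against R-47 it stands at -0.45, beside the X chromosome at -0.48.

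Genes off chromosome 10 that encode partners of members did not, as a set, share the offset. The list holds 68 genes in the table, of which 67 were tested, such as subunits of cohesin, dynactin, exocyst, TFIID, eIF3 and the WAVE complex. Their median log2 fold change in NFS1 against NC was -0.01, with 5 called higher and 12 lower (15.7% and 12.5% of all genes). The exocyst subunit EXOC4 was highest (0.83, SE 0.10, where the member EXOC6 had 0.75). BMPR2 (0.48, where the member BMPR1A had 0.89), GLI2 (0.40), RAB5A (0.31) and EIF3L (0.14) were also called higher. The decay factor UPF3B was lowest (-0.66, SE 0.10), on the X chromosome. The dynactin subunits DCTN1, DCTN2 and DCTN3 were called lower (-0.18, -0.15 and -0.35), while their filament partner ACTR1A, a member, had 0.48. This is a description of the list, with no test of its difference from the panel.

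Among the 51 members, the log2 fold change had a Spearman correlation of -0.51 with the mean level, 0.29 with position and 0.12 with GC content. It was 0.38 with the length per gene that the deposited FPKM values imply, which is not the genomic span. The points share libraries and depth, and SFMBT2 and FRMD4A, the extremes of the shift, are among the members of low level. By FPKM, which scales for length, DDX21 (96.1), VCL (92.7) and GHITM (90.8) were the highest members in NFS1, and VCL (103), DDX21 (70.5) and GHITM (65.8) in NC.

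Most members were lower in NC libraries than in R-47 libraries, and again unevenly along the chromosome. NC and R-47 are both labelled wild type and held at 47 °C, but come from separate experiments, so experiment and group cannot be told apart, and this comparison shares the NC libraries with the one above. Of 51 members tested, 36 were called lower (39.6% of all genes) and 7 higher (40.1% of all genes; 79.7% in either direction), with a median log2 fold change of -0.66 against 0.01 over all genes. The median over all genes was 0.19 under library size alone and 0.01 under TMM, and the counts over all genes were 7465 higher and 4740 lower under library size alone, where TMM gave 6043 and 5978. The panel median minus that of all genes was -0.67 under both scalings. Members before 80 Mb had a median of -0.02, with 6 called higher and 8 lower of 21, and members from 80 Mb on had -0.82, with 28 of 30 called lower. The other chromosome 10 genes had 0.03 before and -0.67 after the edge, but the stretch before it was not even. Over all chromosome 10 genes, bins 1 to 4 had medians of -0.55, -0.11, 0.02 and 0.49 and bins 5 to 7 had -0.72, -0.67 and -0.75. In bin 1, at the end of the short arm, 57 of 85 genes were called lower.

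The members furthest down in NC against R-47 were SFMBT2 (log2 fold change -4.19, SE 0.24), DOCK1 (-2.63, SE 0.06), SH3PXD2A (-2.37, SE 0.07) and FAM53B (-1.71, SE 0.07). DOCK1 had 12.7, 10.7, 12.4, 11.1 and 11.7 CPM in NC, against 66.9, 73.9, 76.8, 77.3 and 70.3 CPM in R-47, with no overlap. The member nearest the panel median was PDCD4 (-0.66, SE 0.06). FRMD4A (1.60, SE 0.49, on 0 to 7 counts in R-47), VCL (0.81, SE 0.05), OAT (0.43, SE 0.06) and KIF5B (0.35, SE 0.06) were highest. OAT had 32.3, 31.2, 29.8, 31 and 29.8 CPM in NC, against 23.8, 22.6, 21.6, 23.7 and 23.1 CPM in R-47, and is the distal member called higher; TAF5 was the distal member not called (-0.09, SE 0.08). Chromosome 10 ranked 22nd of 23, at -0.45, with the X chromosome at -0.48 and chromosome 14 highest at 0.57. ITIH2 and SNCG (-7.03 and -5.20) and, upward, VIM and SRGN (4.40 and 2.87) were the extremes among chromosome 10 genes outside the panel.

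**Figure D5:**
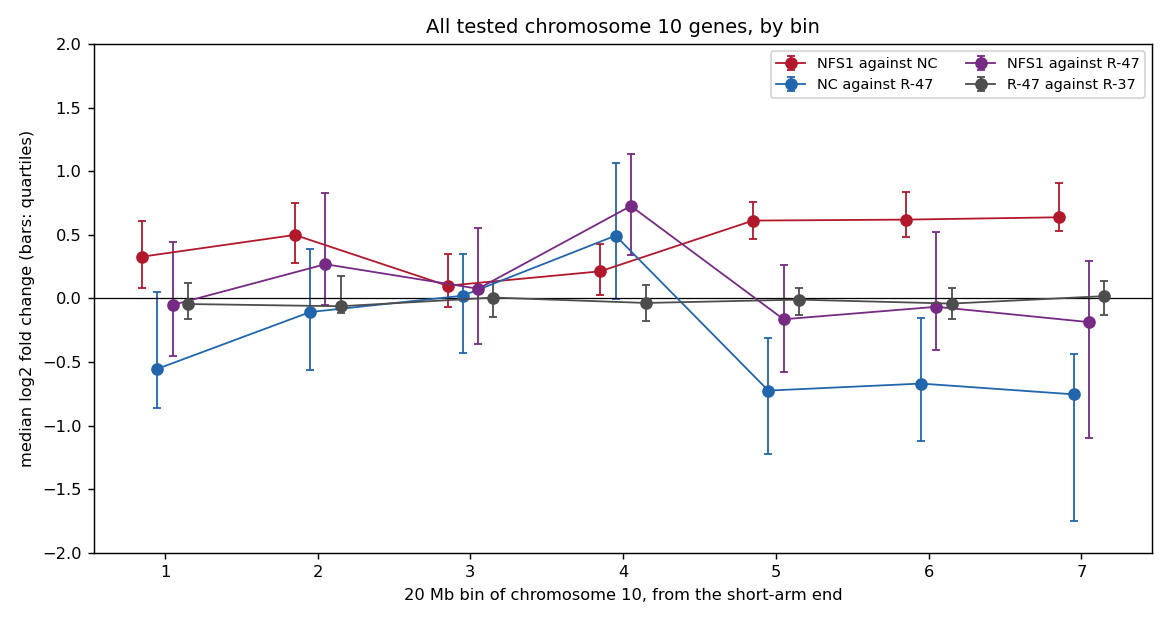
Median log2 fold change (y axis; bars span the quartiles) of all tested chromosome 10 genes in 7 bins of 20 Mb from the short-arm end (x axis), for the 4 comparisons. NC against R-47 stands at -0.55 in bin 1, 0.49 in bin 4 and -0.72 in bin 5, while NFS1 against NC stands at 0.50 in bin 2, 0.21 in bin 4 and 0.61 in bin 5, and R-47 against R-37 stays near 0.

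NFS1 against R-47 compares the libraries labelled as the knockdown with the heated wild type of the other experiment and shares libraries with both comparisons above. Of 51 members tested, 17 were called higher (37.3% of all genes) and 24 lower (35.6% of all genes; 72.9% in either direction), with a median log2 fold change of -0.10. Under library size alone 25 were called higher and 12 lower, and the median turned to 0.10, while relative to all genes it was -0.13 under both scalings. Members on each side of the 80 Mb edge differed in direction here, in a ratio that combines both comparisons above. Before 80 Mb, 15 of 21 were called higher (median 0.30). From 80 Mb on, 21 of 30 were called lower (median -0.30, or -0.09 under library size alone). Over all chromosome 10 genes, bins 1 to 7 had medians of -0.05, 0.27, 0.08, 0.73, -0.16, -0.07 and -0.19. Bin 1 thus lay nearer the distal bins than bin 4 did, and the profile was not a single step at the edge. PTPRE (-2.05, SE 0.17), DOCK1 (-1.38, SE 0.07), ANXA11 (-0.91, SE 0.06) and NRP1 (-0.88, SE 0.08) were lowest. NRP1 had 153, 131, 142, 189 and 157 CPM in NFS1, against 293, 276, 295, 291 and 282 CPM in R-47, with no overlap. FRMD4A (4.82, SE 0.34), SFMBT2 (1.43, SE 0.13), OAT (1.06, SE 0.07) and JMJD1C (1.02, SE 0.11) were highest, and WAPL (-0.10, SE 0.06) lay at the centre. Chromosome 10 ranked 9th of 23.

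R-47 against R-37, the heat contrast within the other experiment, shares no library with NFS1 against NC. Its ratios too are among those the members were chosen from. Of 50 members tested, 2 were called higher and 8 lower, which is 4% and 16% of them, where 11.9% and 13.2% of all 14344 genes were called. Groups did not overlap for 2 members higher and 4 lower (8.07% and 9.95% of all genes). The median log2 fold change was -0.05 over members and -0.01 over all genes, and 46 of 50 members lay within 0.25 of the panel median. The interquartile range was 0.11 over members, 0.28 over other chromosome 10 genes, 0.17 over the partners off chromosome 10 and 0.31 over all genes. The median SE was 0.063 over members and 0.082 over all genes. Chromosome 10 ranked 15th of 23. With library size alone, 5 members were called higher and 3 lower, and over all genes 2977 and 1013 in place of 1714 and 1890, so the balance depended on the scaling. FRMD4A, at 0 to 7 counts in these libraries, was not tested.

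The members called in this comparison were spread over both arms. TRIM8, a ubiquitin ligase of the tripartite motif family, had 67, 72.2, 73.5, 73.4 and 77.6 CPM in R-47, against 59, 59.6, 62, 62 and 55.5 CPM in R-37. The groups did not overlap (log2 fold change 0.29, SE 0.05). VCL had 342, 368, 381, 387 and 366 CPM in R-47, against 288, 336, 299, 297 and 319 CPM in R-37, also apart (0.27, SE 0.05). ADK, the enzyme that phosphorylates adenosine, fell furthest, to 15.9, 14.4, 12.8, 16.7 and 14.5 CPM in R-47, against 18.8, 23.3, 21.4, 22.9 and 21.8 CPM in R-37. Every R-47 library was below every R-37 library (-0.54, SE 0.08).

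EXOC6 averaged 23 ± 2.14 CPM in R-47 and 29.7 ± 4.42 CPM in R-37 (-0.36, SE 0.10). GRK5 averaged 20 ± 0.989 CPM in R-47 and 24.5 ± 2.48 CPM in R-37 (-0.29, SE 0.07). BMPR1A averaged 24.4 ± 1.39 CPM in R-47 and 29.3 ± 2.4 CPM in R-37 (-0.25, SE 0.07), and it was not called under library size alone, with all 20 libraries in one fit or in the 3 FPKM settings. EXOC6 and GRK5 were called under library size alone but not in the FPKM settings. GDI2, HNRNPH3, KIF5B and TCF7L2 were called lower by 0.18 to 0.20 on the log2 scale. None of them was called lower under library size alone, where the 3 members called lower were ADK, EXOC6 and GRK5. PDCD11 (0.09, SE 0.05) and GSTO1 (0.12, SE 0.06) were the next highest and were not called, but both were called higher under library size alone (0.17 and 0.19) and in the 2 filtered FPKM settings. SFMBT2, with -0.07 (SE 0.14), and SHOC2, with -0.04 (SE 0.10), lay equally near the panel median, and the sign of SFMBT2 turned under library size alone (0.011).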

How the data were processed

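Libraries were made from TRIzol-extracted RNA with a VAHTS Universal V6 kit, per the labels' protocols, and fastp, HISAT2 and HTSeq with hg38 are named in the submitters' processing notes; no version, annotation or strand setting is named there. The authors deposited unnormalised whole-number counts per gene symbol, and the deposited FPKM values follow from those counts, 1 length per gene and the library total. The 52 members, role groups, partner list and 80 Mb edge were chosen with earlier results of these data known.

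Samples were grouped by title. Each comparison used the 5 libraries of each of its 2 groups: edgeR (4.0.16) filterByExpr (minimum count 10, total 15), TMM, quasi-likelihood test, Benjamini-Hochberg adjustment over all genes, threshold 0.05. The SE is the log2 fold change over the square root of F. CPM levels used TMM over all 20 libraries, and log2 CPM a prior count of 2. Positions are RefSeq GRCh38.p14 (94.9% of symbols matched). Depth of 32219946 to 39689939 counts sets the precision; floors cover counting error only. Named genes were, in each comparison, the 4 highest, the 4 lowest and the most central member, members not tested, NFS1, and 2 called chromosome 10 genes at each end outside the panel (average log2 CPM of at least 4); others illustrate role groups. The hepatocyte, mesenchymal and epithelial markers and those of other cell types summed, in CPM, to the ranges in the closing section. Replicate numbers did not pair the samples: same-number correlations of deviations were -0.54 to 0.20 in NFS1 against NC. The test was checked on simulated counts. Alternatives were other scalings, filters and tests (DESeq2 1.42.0, limma 3.58.1 on counts and FPKM), a replicate block, length and GC offsets and each library left out, in R 4.3.3. Tables were handled in pandas 2.3.3 and plots drawn with matplotlib 3.10.9 under Python 3.11.15. Reads shared by paralogues (DDX21 and DDX50) or overlapping genes cannot be told apart.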

Additional observations from a re-analysis of the deposited data

Results flagged for a closer look

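In 8 of 96 groups of 5 libraries, 1 library stood apart from the other 4 by more than Dixon's 95% limit (gap over range above 0.71). Chance gives about 1 in 20 for a single group. The 96 groups share libraries and the genes were picked from these data, so the count is not set against that rate. The panel level, the median deviation of members from their 20-library means in log2 CPM, was 0.245 in NFS1 library 4, against 0.0438 to 0.0708 in the other NFS1 libraries. That library also stood apart for SFMBT2 (18.2 CPM, others 13.5 to 14 CPM), EXOC6 (19.1 CPM, others 12.5 to 13.7 CPM) and GSTO1 (47.7 CPM, others 56.8 to 59 CPM). KIF5B was at 268 CPM in NC library 1 (others 201 to 212 CPM), and ANXA11 at 77.2 CPM in NC library 4 (others 81.6 to 82.7 CPM). GRK5 was at 18.3 CPM in R-47 library 5 (others 20.2 to 20.5 CPM), and CAMK2G at 43.9 CPM in R-37 library 2 (others 39.5 to 40.6 CPM). Without NFS1 library 4, 45 members were called higher and 1 lower in NFS1 against NC, at a median log2 fold change of 0.55. What sets these libraries apart was not tested.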

How the results depend on the processing

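In NFS1 against NC, 41 to 46 members were called higher over the alternatives. The count called lower was 1 with all 20 libraries in one fit, 2 with length and GC offsets, 0 to 1 with a library left out, and 1 without NC library 1 and NFS1 library 4, a setting chosen after seeing the data; that member was VCL, joined by PTPRE under the offsets. The median was 0.48 with offsets and 0.54 to 0.60 with a library left out. With the replicate block, which pairs libraries by number, 41 were called higher and 0 lower, and ANXA7 was no longer called; in the other comparisons the block gave 7 and 36 (NC against R-47), 17 and 24 (NFS1 against R-47) and 2 and 6 (R-47 against R-37). Each library correlated best with its own number in at most 1 of 5 cases, so the numbers gave no pairing.

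In NC against R-47, 12 members were called higher with library size alone and 11 with unfiltered FPKM or offsets. The median was -0.48 with library size alone, -0.62 at a minimum count of 50, -0.41 on log2(FPKM + 1), -0.45 on log2(FPKM + 0.1), -0.40 unfiltered, -0.53 with offsets and -0.67 to -0.62 with a library left out. In NFS1 against R-47, 12 members were called lower with library size alone and 11 in each FPKM setting, at medians of 0.10 (library size), 0.092, 0.0997 and 0.089 (FPKM) and 0.014 (offsets). WAPL turned positive at 0.10 (library size), 0.092, 0.0997 and 0.092 (FPKM).

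In R-47 against R-37, members called higher numbered 5 (library size, unfiltered FPKM, offsets) or 6 (both filtered FPKM settings). Those called lower numbered 3 with library size, 5 with all 20 libraries, 2 in the FPKM settings and 5 to 10 with a library left out. The median was 0.025 (library size), 0.023, 0.028 and 0.0091 (FPKM) and 0.0012 (offsets), and -0.077 to -0.021 with a library left out. SFMBT2 turned positive at 0.011 (library size), 0.0042 (unfiltered FPKM) and lay between -0.18 and 0.041 with a library left out. FPKM carries library-size scaling, and for the rest the cause was not tested. Depth limits FRMD4A, PTPRE and FGFR2.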

Other observations

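The marker lists summed as follows. Mesenchymal genes (5) gave 1211 to 1630.1 CPM in NFS1, 901 to 1095 CPM in NC, 6824 to 7938 CPM in R-47 and 11729 to 13805 CPM in R-37, and epithelial genes (4) gave 6.97 to 10.5, 15.3 to 20.3, 424 to 467 and 378 to 502 CPM in the same order. FN1 carried the mesenchymal sum, at 1063, 645, 7199 and 12392 CPM in that order, while VIM (164, 217, 10.3 and 10.6 CPM) and SNAI2 (26.7, 13.3, 5.92 and 4.58 CPM) were higher in NFS1 and NC than in R-47 and R-37. KRT19 carried the epithelial sum in R-47 and R-37, at 0.651, 0.794, 423 and 425 CPM in that order. CDH1 averaged 3.03, 3.99, 18.5 and 19.7 CPM and EPCAM 0.263, 0.175, 0.591 and 0.423 CPM. CLDN1, at 5.38, 12.7, 8.85 and 7.12 CPM, was instead highest in NC. Fibroblast and stellate markers (6) gave 34.8 to 56.7 CPM in NFS1, 23.4 to 28.5 in NC, 17.6 to 20.9 in R-47 and 18 to 26.9 in R-37. Leukocyte markers (6) gave 128 to 149.8, 118 to 128, 149 to 194 and 80.6 to 90.5 CPM, mostly from CD68, and endothelial markers (5) 51.9 to 58.3, 56.1 to 70.0, 70.0 to 79.2 and 66.3 to 78.3 CPM, again in that order. The endothelial sum came mostly from PECAM1 (12.5, 17.6, 54.8 and 48.6 CPM) and KDR (40.9, 44.1, 19.4 and 23.5 CPM). The leukocyte gene ITGAM averaged 1.51, 1.74, 10.5 and 5.9 CPM in the same order. In contrast, the leukocyte gene CD3E and the endothelial gene CDH5 were at 0 in all NFS1, NC and R-47 libraries. The part of all these markers in the panel's shift was not tested.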
